A study of Mus musculus with 20 samples.

Results

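The 45 genes described here encode the ligands, receptors and SMAD proteins of the TGF-beta and BMP family, chosen by gene symbol out of 19937 measured genes. They comprise 3 TGF-beta ligands, 10 BMP ligands, 8 GDF ligands, 4 activin subunits, 6 type I receptors, 4 type II receptors, the co-receptor gene Tgfbr3, 8 SMAD genes and Bmp1, which carries the family name but encodes a protease. Each had a single probe set. Gdf1 also met the naming rule, but its probe set carries several gene symbols and it was left out. Expression was measured on 20 Affymetrix arrays of sorted mammary epithelial cells from mice on a mixed FVB and CD-1 background, 4 weeks after tamoxifen, and each array was made from amplified RNA of 2000 cells. Each sort pooled the glands of 2 to 3 estrus-synchronized mice of a genotype. K8-creERT2/PIK3CA H1047R mice gave 2 basal groups, GFP positive and GFP negative, on 3 arrays each, a Sca1-negative luminal group (GFP positive) on 3 arrays and a Sca1-positive luminal group (GFP positive) on 2 arrays. K8-creERT2 control mice gave GFP-negative cells of the basal, Sca1-negative luminal and Sca1-positive luminal gates on 3 arrays each. All 7 groups carry the tamoxifen-dependent Cre recombinase under the keratin 8 promoter, and the labels list tamoxifen for all of them. Keratin 8 is a luminal keratin. Per the labels, GFP marks the mutant cells that express PIK3CA H1047R, a mutant form of the catalytic subunit of phosphoinositide 3-kinase, so GFP-negative basal cells of mutants are cells of the same glands without it. All control groups are GFP negative, so the mutation and GFP status cannot be told apart where GFP-positive groups are compared with controls. GFP-positive basal cells may also descend from keratin 8-expressing luminal cells, and such an origin cannot be told apart from the mutation. Differences are between groups and not courses over time. The basal gate was CD24 low and Sca1 negative, and the luminal gates were CD24 high.

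Ligands of this family bind a pair of receptor kinases, in which a type II receptor activates a type I receptor. Type I receptors of the TGF-beta and activin branch phosphorylate SMAD2 and SMAD3, and those of the BMP branch phosphorylate SMAD1, SMAD5 and SMAD9. The phosphorylated proteins enter the nucleus with SMAD4, and SMAD6 and SMAD7 inhibit the pathway. In the mammary gland, TGF-beta ligands are known as inhibitors of epithelial growth and ductal branching, and BMP ligands take part in communication between stroma, basal and luminal cells.

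Values are log2 probe set levels. Calls were made with limma fitted to all 19937 genes, where p-values adjusted by Benjamini and Hochberg for each comparison fell under 0.05, and errors of differences are standard errors of that fit. Array medians lay between 3.66 and 3.80 over probe sets, and arrays of a group correlated at 0.931 to 0.971. Replicate 2 of the GFP-positive mutant basal cells and replicate 2 of the control Sca1-positive luminal cells had a narrower spread (SD 1.71 and 1.72) than the 18 other arrays (1.78 to 1.88), and calls that depend on them are given below. The gates carried their markers. The mean level of 9 basal myoepithelial genes was 9.06 to 9.65 on arrays of the 3 basal groups and 4.41 to 5.31 on arrays of the 4 luminal groups, and that of 10 luminal genes was 6.58 to 8.30 on basal and 9.55 to 9.95 on luminal arrays. Ly6a, which encodes Sca1, was not used because no single-symbol probe set carried it.

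Across the 7 groups, 20 of the 45 genes were above the median gene of the array on all 20 arrays, 9 on no array and 16 on some. The first set held all 3 TGF-beta ligands, the BMP ligand Bmp7, the activin subunits Inhba and Inhbb, the receptors Acvr1, Acvr2a, Bmpr1a, Bmpr2, Tgfbr1, Tgfbr2 and Tgfbr3, Bmp1, and Smad1, Smad2, Smad3, Smad4, Smad5 and Smad7. The 9 genes never above it were Bmp5, Bmp10, Bmp15, Gdf2, Gdf6, Inhbc, Inhbe, Acvr1c and Bmpr1b. No detection call was used, and a level below the median gene does not show absence. The moderated F test found a difference among the 7 groups for 12 of the 45 genes, against 20.7% of all genes. These were Tgfb2, Tgfb3, Bmp1, Bmp3, Bmp7, Inhbb, Acvr1, Tgfbr1, Bmpr2, Tgfbr3, Smad1 and Smad6. Group means spanned more than 2 on the log2 scale for 5 genes (Bmp7, Inhba, Tgfb2, Tgfbr1 and Tgfbr3) and less than 0.5 for 20 genes. Tgfb1, which encodes the founding ligand of the family, was among the 20, with group means within 0.34 of each other and array values of 5.12 to 6.38.

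**Figure D1:**
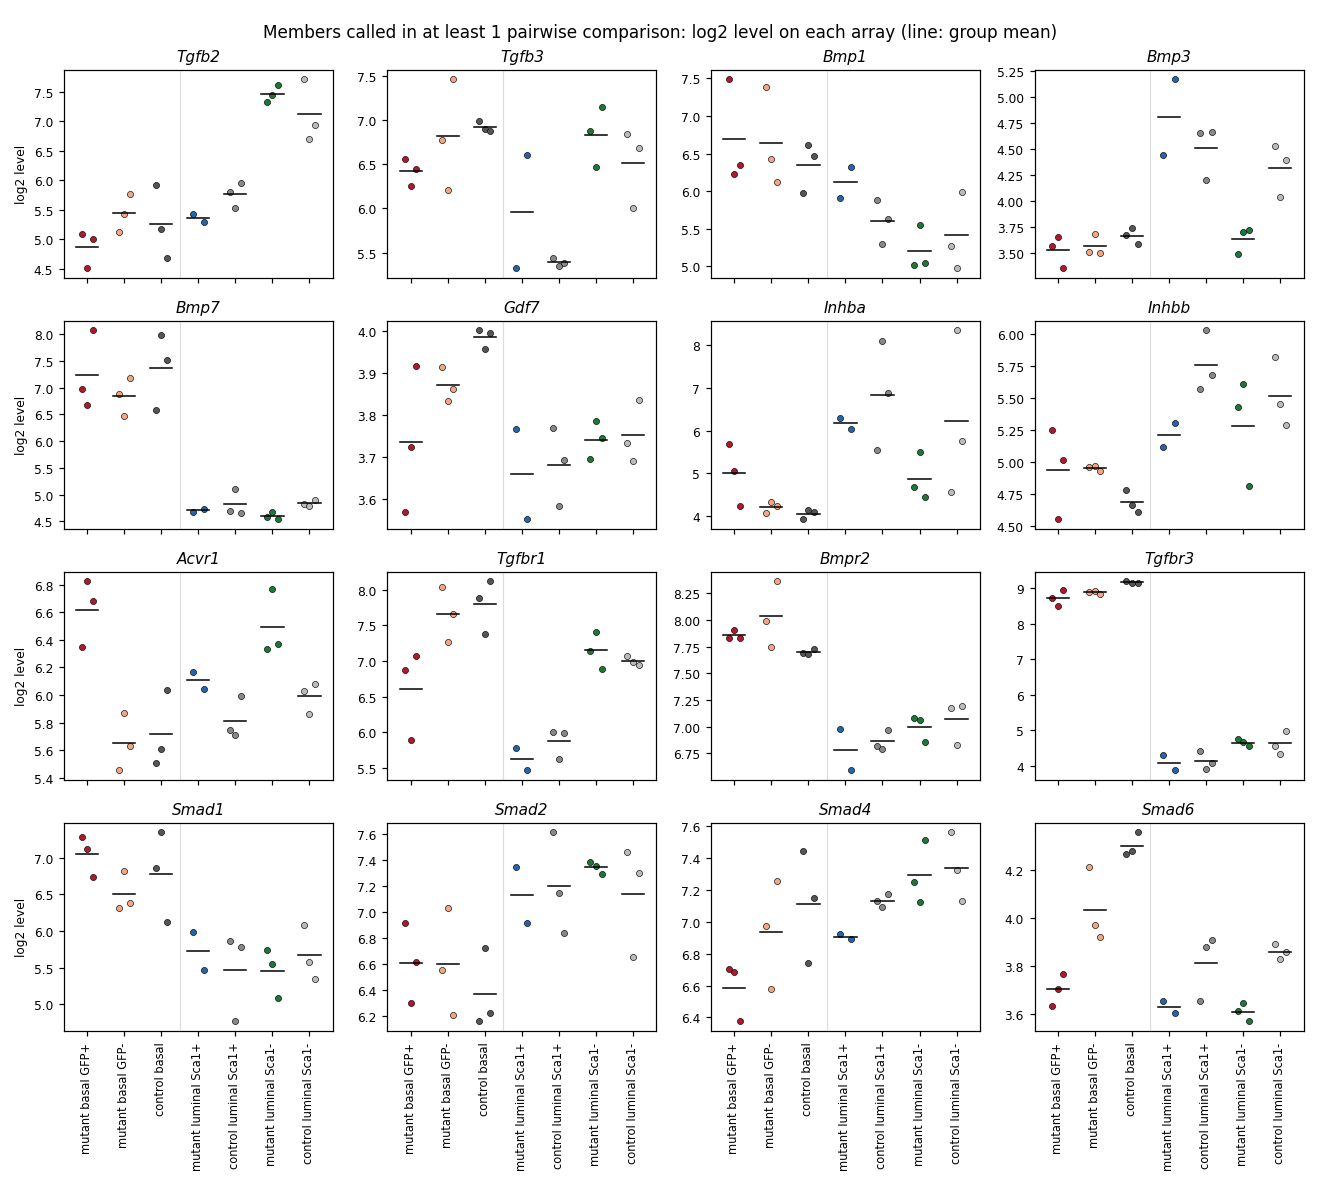
Log2 level of the 16 family genes called in at least 1 pairwise comparison, on each of the 20 arrays (points) with the mean of each of the 7 groups (lines); mutant basal and control basal groups stand left of the grey divider, luminal groups right of it. Tgfbr3 and Bmp7 separate basal from luminal arrays, Tgfb2 is high in both Sca1-negative luminal groups, and Acvr1 and Smad6 set the GFP-positive basal cells apart from both other basal groups.

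Tgfbr3, Bmp7, Bmpr2, Smad1 and Smad6 were higher in control basal cells than in both luminal subsets, and Bmp3 and Inhbb were lower. Against Sca1-negative luminal cells 8 of the 45 genes were called (background 9.89%), 5 higher (4.67% of all genes) and 3 lower (5.22%). Against Sca1-positive luminal cells 12 were called (background 12.3%), 8 higher (5.94% of all genes) and 4 lower (6.32%). The basal and luminal arrays did not overlap for 19 of the 45 genes against Sca1-negative cells (25.9% of all genes) and for 17 against Sca1-positive cells (25.1%). Both comparisons use the same control basal arrays. The median difference of the 45 genes was 0.05 against Sca1-negative cells (0.01 over all genes) and 0.07 against Sca1-positive cells (-0.01 over all genes). In sorted bulk samples, fewer cells of a type and less RNA per cell cannot be told apart.

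Tgfbr3 encodes betaglycan, a co-receptor that presents TGF-beta ligands and inhibin to the signalling receptors. It measured 9.19, 9.16 and 9.15 in control basal cells, against 4.41, 3.92 and 4.07 in control Sca1-positive luminal cells and 4.56, 4.34 and 4.97 in control Sca1-negative luminal cells. The basal arrays lay far above all luminal arrays, and the difference was 5.03 ± 0.16 against Sca1-positive cells (32.7-fold, adjusted p = 1.27e-11) and 4.54 ± 0.16 against Sca1-negative cells (23.3-fold, adjusted p = 6.59e-11). It was also high in both basal groups of the mutants, at 8.71, 8.48 and 8.96 in GFP-positive cells and 8.89, 8.92 and 8.83 in GFP-negative cells. GFP-positive basal cells exceeded mutant Sca1-negative luminal cells (4.74, 4.66 and 4.55) by 4.07 ± 0.16 (adjusted p = 3.16e-10). Against control basal cells, the difference of -0.45 ± 0.16 in GFP-positive cells was not called (adjusted p = 0.167), although no array of either group reached into the other.

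Bmp7, a BMP ligand, measured 6.58, 7.98 and 7.52 in control basal cells, against 4.69, 5.11 and 4.65 in control Sca1-positive luminal cells and 4.82, 4.78 and 4.90 in control Sca1-negative luminal cells. Every basal array was above every luminal array, by 2.54 ± 0.33 on average against Sca1-positive cells (5.83-fold, adjusted p = 5.78e-05) and by 2.53 ± 0.33 against Sca1-negative cells (5.76-fold, adjusted p = 7.84e-05). GFP-positive mutant basal cells kept this distance from mutant Sca1-negative luminal cells, with 6.98, 6.68 and 8.07 against 4.59, 4.67 and 4.54 (difference 2.64 ± 0.33, adjusted p = 5.50e-05). Bmp3 encodes a BMP ligand that acts as an inhibitor of other BMPs. It was lower in control basal cells, at 3.67, 3.74 and 3.58, than in control Sca1-positive luminal cells (4.65, 4.20 and 4.66, difference -0.84 ± 0.18, adjusted p = 0.00393) and control Sca1-negative luminal cells (4.52, 4.04 and 4.39, difference -0.66 ± 0.18, adjusted p = 0.0243). The control basal levels of Bmp3 were below the median gene of each array. Gdf7, another BMP-type ligand, was higher in control basal cells than in Sca1-positive luminal cells by a small 0.30 ± 0.09 (adjusted p = 0.0373).

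Tgfb2, a TGF-beta ligand gene, measured 5.79, 5.53 and 5.95 in control Sca1-positive luminal cells, against 7.71, 6.70 and 6.94 in control Sca1-negative luminal cells, which had the higher levels without overlap (difference -1.36 ± 0.29, adjusted p = 0.0407). It was the only family gene called between these subsets (background 0.762% of genes, and 0.577% called lower). Control basal cells had 5.91, 5.18 and 4.67, below Sca1-negative luminal cells by 1.86 (difference -1.86 ± 0.29, adjusted p = 0.000386). In the mutants, Tgfb2 measured 5.08, 4.5 and 5.0 in GFP-positive basal cells and 7.33, 7.44 and 7.61 in Sca1-negative luminal cells, a difference of -2.60 ± 0.29 (adjusted p = 1.66e-05). Tgfb3, another TGF-beta ligand gene, measured 6.99, 6.89 and 6.88 in control basal cells, against an even 5.44, 5.35 and 5.38 in control Sca1-positive luminal cells, and was higher in basal cells by 1.53 ± 0.32 (adjusted p = 0.00371). Of the 2 mutant Sca1-positive luminal arrays, replicate 1 had a Tgfb3 level of 5.32 and replicate 3 of 6.60, so this group spanned most of the range of the others.

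Of the 4 activin subunit genes, Inhbb and Inhba were lower in basal cells. Inhbb, the activin beta B subunit gene, measured 4.78, 4.66 and 4.61 in control basal cells, against 5.57, 6.03 and 5.68 in control Sca1-positive luminal cells (difference -1.07 ± 0.20, adjusted p = 0.0018) and 5.82, 5.45 and 5.29 in control Sca1-negative luminal cells (difference -0.83 ± 0.20, adjusted p = 0.0141). Inhba, the beta A subunit gene, measured 3.92, 4.14 and 4.08 in control basal cells, against 5.55, 8.10 and 6.88 in control Sca1-positive luminal cells, and differed by -2.80 ± 0.74 (adjusted p = 0.0193). Its levels scattered widely within luminal groups. Control Sca1-negative luminal cells had 4.57, 8.36 and 5.75, and the difference of basal cells from these, -2.18 ± 0.74, was not called (adjusted p = 0.0808). GFP-positive mutant basal cells had 5.70, 5.06 and 4.24 for Inhba, above all control basal arrays but not called against them.

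Among receptors, Bmpr2, the type II BMP receptor gene, measured 7.69, 7.68 and 7.73 in control basal cells, against 6.82, 6.79 and 6.97 in control Sca1-positive luminal cells and 7.17, 6.83 and 7.20 in control Sca1-negative luminal cells. The basal arrays were highest, by 0.84 ± 0.14 (adjusted p = 0.000715) and 0.63 ± 0.14 (adjusted p = 0.00808). Tgfbr1, the type I TGF-beta receptor gene, was graded over the 3 control subsets, with means of 7.79 in basal, 7.0 in Sca1-negative luminal and 5.88 in Sca1-positive luminal cells. The step between basal and Sca1-positive luminal cells was called (1.91 ± 0.27, adjusted p = 0.000136). The smaller steps on either side of Sca1-negative luminal cells were 0.79 for basal over Sca1-negative cells (adjusted p = 0.0877) and -1.12 for Sca1-positive minus Sca1-negative cells (adjusted p = 0.0854), and neither was called. Smad1, the BMP-branch SMAD gene, measured 6.85, 7.34 and 6.12 in control basal cells, against 5.86, 4.77 and 5.79 in Sca1-positive and 6.09, 5.58 and 5.35 in Sca1-negative luminal cells of controls. Its differences were 1.30 ± 0.33 (adjusted p = 0.0154) and 1.10 ± 0.33 (adjusted p = 0.0463), and the basal arrays lay just above the luminal ones. Smad2, of the TGF-beta branch, ran the other way against Sca1-positive luminal cells (6.16, 6.73 and 6.23 against 7.61, 7.14 and 6.84, difference -0.83 ± 0.26, adjusted p = 0.048).

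**Figure D2:**
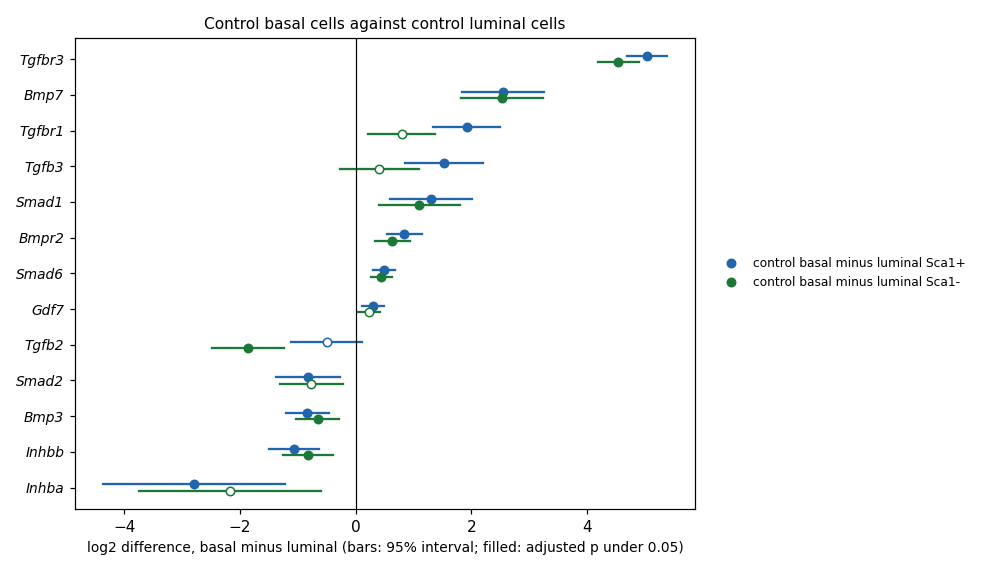
Log2 difference of control basal minus control luminal cells, with 95% intervals, for the family genes called against either luminal subset; filled points passed an adjusted p of 0.05. Tgfbr3 has the largest positive differences at 5.03 and 4.54, followed by Bmp7, Inhba has the largest negative one at -2.80, and Tgfb2 and Tgfb3 are each filled against a single luminal subset.

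Several of these calls ended when single arrays were left out, for some genes also arrays of groups outside the comparison. Leaving out such an outside array changes the shared spread and the adjustment and not the difference. The call of Smad1 against Sca1-negative luminal cells ended without any of 14 of the 20 arrays (adjusted p 0.0511 to 0.204), that of Smad2 without any of 12 (0.0532 to 0.2) and that of Tgfb2 between the luminal subsets without any of 14 (0.0503 to 0.17). Without control basal replicate 1 or 3, or control Sca1-negative luminal replicate 1 or 3, Bmp3 was not called against Sca1-negative cells (-0.66 to -0.55, adjusted p up to 0.111). Inhbb (-0.68, adjusted p = 0.0788) lost that call without control Sca1-negative luminal replicate 1, and Bmpr2 (adjusted p = 0.0502) without replicate 2. Against Sca1-positive luminal cells, Smad1 was not called without control basal replicate 2 or control Sca1-positive luminal replicate 2 (0.95 to 1.01, adjusted p up to 0.0813). Inhba was not called without control basal replicate 1 or control Sca1-positive luminal replicate 2 or 3 (-2.78 to -2.17, adjusted p up to 0.0982), and Gdf7 without any control basal array or control Sca1-positive luminal replicate 2 or 3 (0.25 to 0.32, adjusted p up to 0.132). Among endothelial genes, Cdh5 measured 4.01, 3.89 and 5.19, Pecam1 3.63, 3.46 and 4.48, Cldn5 3.89, 3.67 and 4.28, and Emcn 4.07, 3.13 and 3.34 in control basal replicates 1, 2 and 3, while Kdr and Tek were below the median gene on all 20 arrays. Their part in the basal values was not tested.

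In GFP-positive basal cells of the mutants, 3 of the 45 genes differed from control basal cells (background 4.23%). Acvr1, a type I receptor of the BMP branch, was higher (2.32% of all genes were called higher), and Tgfbr1 and Smad6 were lower (1.91% of all genes). The other 42 genes were not called, and the median difference over all 45 was -0.06, beside -0.03 over all genes. Acvr1 measured 6.35, 6.82 and 6.68 in GFP-positive mutant basal cells, against 5.45, 5.87 and 5.63 in GFP-negative mutant basal cells and 5.51, 5.61 and 6.04 in control basal cells. Its level was higher by 0.90 ± 0.16 than in control basal cells (1.86-fold, adjusted p = 0.00441) and by 0.97 ± 0.16 than in GFP-negative basal cells (1.96-fold, adjusted p = 0.00275). The GFP-positive arrays lay above all arrays of both other basal groups, which overlapped each other. Both comparisons share the GFP-positive arrays.

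Smad6 encodes an inhibitory SMAD of the BMP branch whose gene is induced by BMP signalling. It measured 3.64, 3.71 and 3.77 in GFP-positive mutant basal cells, against 4.21, 3.97 and 3.92 in GFP-negative mutant basal cells and 4.27, 4.28 and 4.36 in control basal cells. It fell by 0.60 against control basal cells (difference -0.60 ± 0.09, 1.51-fold lower, adjusted p = 0.000568) and by 0.33 against GFP-negative basal cells (difference -0.33 ± 0.09, adjusted p = 0.0485). The 3 basal groups did not overlap, with GFP-negative cells of the mutants in the middle, and the difference between these and control basal cells was -0.27 ± 0.09 and not called (adjusted p = 0.294). These levels are close to the median gene of the arrays. The second call ended without any of 18 of the 20 arrays (adjusted p 0.0518 to 0.195), and that against control basal cells held without each of the 20 arrays.

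Tgfbr1 measured 6.88, 5.89 and 7.07 in GFP-positive mutant basal cells, against 8.03, 7.26 and 7.67 in GFP-negative mutant basal cells and 7.89, 7.37 and 8.12 in control basal cells. It fell by 1.18 against control basal cells (difference -1.18 ± 0.27, 2.27-fold lower, adjusted p = 0.0204), and the difference from GFP-negative cells, -1.04 ± 0.27, did not pass (adjusted p = 0.0503). Replicate 2 of the GFP-positive cells, an array of narrower spread, was the lowest at 5.89, and without it the difference was -0.82 (adjusted p = 0.0758). The call also ended without control basal replicate 1 (-1.13, adjusted p = 0.065) or replicate 3 (-1.02, adjusted p = 0.0884). The GFP-positive mean of 6.61 lay between the control means of Sca1-negative (7.0) and Sca1-positive (5.88) luminal cells.

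The promoters of these 3 genes and of Id3, a BMP-induced gene that fell in the same cells, show the sequence around the starts from which the changed transcripts are annotated. Id3 was picked by hand. The promoters of Id2, called higher in these cells, and of Id4, called lower, are not shown. Each line gives 250 bases before and 50 after a RefSeq start in build GRCm38.p6, read along the gene's strand. Smad6 lies on the minus strand at chr9:64022010-64022309, Tgfbr1 on the plus strand at chr4:47352972-47353271 (the first of its annotated starts), Acvr1 on the minus strand at chr2:58566779-58567078 and Id3 on the plus strand at chr4:136143572-136143871. Capitals mark matches to 3 short sequences known from SMAD binding, read on both strands. These are CAGAC, the short SMAD-binding element; a GC-rich element, GGCGCC; and a palindrome, GTCTAGAC. The palindrome was added to the search after the Smad6 sequence had been read.
Smad6: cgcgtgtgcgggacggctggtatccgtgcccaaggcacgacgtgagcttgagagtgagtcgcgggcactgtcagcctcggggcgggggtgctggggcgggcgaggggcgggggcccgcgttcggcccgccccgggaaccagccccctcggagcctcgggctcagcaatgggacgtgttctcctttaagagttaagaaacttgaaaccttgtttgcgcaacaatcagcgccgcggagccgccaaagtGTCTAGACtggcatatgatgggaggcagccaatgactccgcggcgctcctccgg
Id3: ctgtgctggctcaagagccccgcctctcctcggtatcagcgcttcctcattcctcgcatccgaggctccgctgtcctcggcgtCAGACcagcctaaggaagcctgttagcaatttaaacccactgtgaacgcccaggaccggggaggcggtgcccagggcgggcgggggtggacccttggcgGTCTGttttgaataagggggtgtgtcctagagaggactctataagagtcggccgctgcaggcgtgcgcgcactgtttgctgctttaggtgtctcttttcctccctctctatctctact
Tgfbr1: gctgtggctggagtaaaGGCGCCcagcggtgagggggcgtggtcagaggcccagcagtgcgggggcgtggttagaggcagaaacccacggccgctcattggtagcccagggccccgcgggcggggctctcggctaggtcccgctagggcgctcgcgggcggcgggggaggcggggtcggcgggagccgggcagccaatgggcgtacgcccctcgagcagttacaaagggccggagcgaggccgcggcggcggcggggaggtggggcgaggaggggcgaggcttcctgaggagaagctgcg
Acvr1: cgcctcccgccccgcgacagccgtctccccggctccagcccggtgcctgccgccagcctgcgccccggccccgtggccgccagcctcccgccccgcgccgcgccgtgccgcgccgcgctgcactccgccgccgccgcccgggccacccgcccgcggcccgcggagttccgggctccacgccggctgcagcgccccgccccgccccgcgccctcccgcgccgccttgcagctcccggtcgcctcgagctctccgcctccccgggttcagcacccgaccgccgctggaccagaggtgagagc
The Smad6 window held GTCTAGAC, starting 4 bases before the annotated start, and 0.213% of 32851 mouse promoters of this length held it. The Id3 window held CAGAC on the plus strand from base -167 and on the minus strand from base -68, and 49.6% of promoters held that sequence. The Tgfbr1 window printed here held GGCGCC from base -233, as did 11.9% of promoters. The window of its other annotated start, chr4:47385966-47386265 on the plus strand, held CAGAC from base -203 and no GGCGCC. The Acvr1 window held none of the 3. Of the 45 genes, 32 had 38 promoters in the table, of which 15 held CAGAC (39.5%), 8 held GGCGCC (21.1%) and 1 held the palindrome. TGTTTAC, a forkhead factor sequence found in 3.65% of promoters, was in 0 of the 38. A match is a description of letters and not a bound site.

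Other cell-type markers moved with the GFP-positive basal cells. The mean of 10 luminal genes was 7.43 to 8.30 on these arrays, against 6.58 to 7.35 on control basal arrays, with 4 of the 10 called higher (Krt18, Krt19, Cldn7 and Ehf). The mean of 7 luminal progenitor genes was 6.92 to 7.56 against 6.07 to 6.32, with 2 called higher, and the mean of 9 basal genes was 9.06 to 9.51 against 9.51 to 9.65, with Myh11 and Oxtr called lower. Of 8 fibroblast genes, Dcn and Col1a2 were called higher, and the list mean was 4.47 to 4.68 against 4.04 to 4.18. Dcn measured 10.15 to 10.84 in GFP-positive mutant basal, 11.08 to 11.17 in mutant Sca1-positive luminal, 6.99 to 8.38 in mutant Sca1-negative luminal, 6.16 to 8.24 in control basal and 10.01 to 11.55 in control luminal cells. Of the 8 genes, Dcn, Col1a1 and Col1a2 were above the median gene on all 20 arrays, Col3a1 on 8, and Lum, Pdgfra, Pdgfrb and Dpt on 0. The mean of 6 hormone-sensing genes was 3.99 to 4.20 in GFP-positive basal cells against 4.54 to 4.66 in control basal cells. Endothelial genes had a list mean of 3.23 to 3.42 in GFP-positive against 3.41 to 4.02 in control basal cells (1 of 6 called, Cdh5 lower), pericyte genes 3.50 to 3.82 against 3.50 to 3.58 (1 of 5 called, Cspg4 higher), immune genes 3.75 to 3.82 against 3.78 to 4.11 (0 of 7 called by limma) and adipocyte genes 3.64 to 3.76 against 3.81 to 3.99 (0 of 5). The part of other cell types in the family's differences was not tested. The Acvr1 mean was 6.62 in GFP-positive basal cells, 6.10 in mutant Sca1-positive and 6.49 in mutant Sca1-negative luminal cells, 5.81 in control Sca1-positive and 5.99 in control Sca1-negative luminal cells. The Smad6 mean was 3.70 in GFP-positive basal cells, 3.63 in mutant Sca1-positive and 3.61 in mutant Sca1-negative luminal cells, 3.81 in control Sca1-positive and 3.86 in control Sca1-negative luminal cells. Neither gene was called between GFP-positive basal and mutant Sca1-negative luminal cells, with differences of 0.13 for Acvr1 (95% interval -0.22 to 0.48, adjusted p = 0.775) and 0.09 for Smad6 (95% interval -0.09 to 0.28, adjusted p = 0.668).

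**Figure D3:**
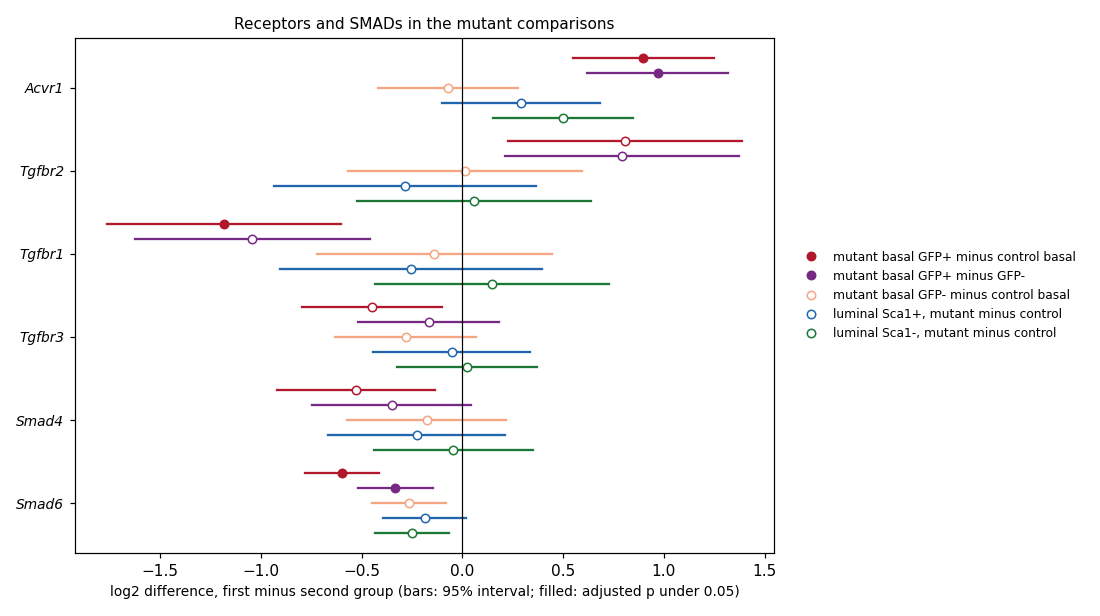
Log2 difference with 95% interval for 4 receptor and 2 SMAD genes in 5 comparisons, of GFP-positive mutant basal cells with each other basal group, of GFP-negative mutant with control basal cells, and of mutant with control cells in each luminal gate; filled points passed an adjusted p of 0.05. Acvr1 is filled in both comparisons of GFP-positive basal cells and open elsewhere, Tgfbr1 and Tgfbr2 lie on opposite sides of 0 in these cells, and Smad6 lies below 0 in these 5 comparisons.

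Further receptor and SMAD genes had unadjusted p under 0.05 in GFP-positive basal cells without being called. Over the whole family, ligands included, 10 of the 45 genes had such a p-value, the 3 called among them, beside 3187 of all 19937. Tgfbr2, the type II TGF-beta receptor gene, was 0.81 ± 0.27 above control basal cells (95% interval 0.23 to 1.39, adjusted p = 0.127). Smad4 differed by -0.53 ± 0.19 (adjusted p = 0.145), with 6.70, 6.68 and 6.37 against 6.97, 6.58 and 7.26 in GFP-negative cells and 7.45, 6.74 and 7.15 in control basal cells, and Smad9 by -0.40 ± 0.13 (adjusted p = 0.117). GFP-positive basal cells were below mutant Sca1-negative luminal cells in Smad4 (7.25, 7.12 and 7.51, difference -0.71 ± 0.19, adjusted p = 0.0215), 1 of 7 genes called between these groups (background 9.59%), of which 5 were higher (4.43% of all genes) and 2 lower (5.16%). Bmp1, the procollagen protease gene, was higher in GFP-positive basal cells there, with 7.49, 6.22 and 6.35 against 5.02, 5.55 and 5.04 (difference 1.48 ± 0.37, adjusted p = 0.0152). Bmpr2 (0.86 ± 0.14, adjusted p = 0.000758) and Smad1 (1.59 ± 0.33, adjusted p = 0.0047) were also higher, as between control lineages. The call of Bmp1 ended without GFP-positive basal replicate 1 or mutant Sca1-negative luminal replicate 1 or 3 (1.08 to 1.40, adjusted p up to 0.0797), and that of Smad4 without GFP-positive basal replicate 3 or mutant Sca1-negative luminal replicate 1 or 3 (-0.73 to -0.60, adjusted p up to 0.109).

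GFP-negative basal cells of the mutants showed 0 of 45 calls against control basal cells in limma (background 0.161%), with 5 genes at an unadjusted p under 0.05 (1932 of all genes). Smad5, a BMP-branch SMAD gene, had the largest of these differences at -0.69 ± 0.25 (95% interval -1.22 to -0.15, adjusted p = 0.358).

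In Sca1-negative luminal cells limma called 0 of 45 genes (background 1.90%), with 5 at an unadjusted p under 0.05 (2235 of all genes). In Sca1-positive luminal cells it called 0 of 45 (background 0.226%), with 2 at an unadjusted p under 0.05 (1786 of all genes), in a comparison that has only 2 mutant arrays. Bmp3 came nearest in Sca1-negative cells, at 3.49, 3.70 and 3.71 in mutants against 4.52, 4.04 and 4.39 in controls (difference -0.68 ± 0.18, 95% interval -1.06 to -0.31, adjusted p = 0.0635). The mutant arrays lay at the level of control basal cells (3.67, 3.74 and 3.58) and did not overlap the control luminal arrays. In Sca1-positive cells Bmp3 was 4.43 and 5.17 in mutants against 4.65, 4.20 and 4.66 in controls, which overlapped. The mutant difference in Sca1-positive minus that in Sca1-negative cells was 0.98 ± 0.26 for Bmp3 and not called (adjusted p = 0.248).

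Acvr1 in Sca1-negative luminal cells measured 6.33, 6.76 and 6.37 in mutants, against 6.03, 5.86 and 6.08 in controls, without overlap but not called (difference 0.50 ± 0.16, 95% interval 0.15 to 0.85, adjusted p = 0.188). Sca1-positive luminal cells had 6.16 and 6.04 in mutants against 5.74, 5.71 and 5.99 in controls, also without overlap (difference 0.29 ± 0.18, adjusted p = 0.668). Every GFP-positive array of the 3 gates was therefore above every control array of its gate in Acvr1. Smad6 was below control without overlap, at 3.61, 3.65 and 3.57 against 3.89, 3.83 and 3.86 in Sca1-negative luminal cells (difference -0.25 ± 0.09, adjusted p = 0.221) and at 3.65 and 3.60 against 3.66, 3.88 and 3.91 in Sca1-positive luminal cells (difference -0.19 ± 0.10, adjusted p = 0.61). In Sca1-positive cells the nearest arrays were almost equal, with 3.6545 on mutant replicate 1 and 3.6551 on control replicate 1. Both values were below the median gene of the array. Such separation is common on these arrays. It held for 10 of the 45 family genes and 22.6% of all genes in Sca1-negative cells, 9 of 45 and 28.6% in Sca1-positive cells, and 13 of 45 and 18.6% between GFP-positive and control basal cells. Tgfbr1 did not follow this pattern, with 7.14, 7.41 and 6.89 in mutant against 7.07, 6.98 and 6.95 in control Sca1-negative luminal cells, which overlapped.

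The difference between gates was tested as an interaction. For GFP-positive minus control basal cells against mutant minus control Sca1-negative luminal cells, 0 of 45 genes were called by limma (background 1.55%), with 4 at an unadjusted p under 0.05 (2025 of all genes). The interaction was -1.33 ± 0.39 for Tgfbr1 (adjusted p = 0.13), -0.35 ± 0.12 for Smad6 (adjusted p = 0.254) and 0.40 ± 0.23 for Acvr1 (95% interval -0.10 to 0.89, adjusted p = 0.661). Between the luminal subsets, limma called 0 of 45 (background 0.140%), with 1 at an unadjusted p under 0.05 (1129 of all genes). The responses of family genes were thus not shown to differ between gates.

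Of 17 measured antagonists and modulators, 3 rose in GFP-positive against control basal cells (2.32% of all genes) and 0 fell (1.91%). Sostdc1, an antagonist of BMP and Wnt ligands, measured 8.38, 8.21 and 9.27 in GFP-positive mutant basal cells, against 6.92, 4.98 and 5.13 in GFP-negative mutant basal cells and 4.97, 6.88 and 4.65 in control basal cells. The GFP-positive arrays were above all others, by 3.12 ± 0.51 over control (8.67-fold, adjusted p = 0.00178) and 2.94 ± 0.51 over GFP-negative cells (adjusted p = 0.00331). Fst encodes follistatin, which binds and blocks activins. It measured 9.64, 9.19 and 9.48 in GFP-positive mutant basal cells against 6.11, 7.77 and 8.14 in control basal cells (difference 2.10 ± 0.48, 4.28-fold, adjusted p = 0.0177), and this call ended without control basal replicate 1 (1.48, the smallest difference) or GFP-positive replicate 1 or 3 (adjusted p 0.0548 to 0.0681). GFP-negative mutant basal cells had 8.15, 7.91 and 6.94 for Fst. Bmper, a secreted BMP-binding protein gene, was higher by 0.62 ± 0.12 over control basal cells (adjusted p = 0.00658). The other 14 genes were not called, and the median difference over the 17 was -0.06, beside -0.03 over all genes.

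Of 13 latency and co-receptor genes, 3 rose (2.32% of all genes) and 2 fell (1.91%) in GFP-positive against control basal cells. Lrrc32, whose product anchors latent TGF-beta at the cell surface, measured 5.39, 4.71 and 4.27 in GFP-positive mutant basal cells against 3.49, 3.83 and 3.81 in control basal cells (difference 1.08 ± 0.20, adjusted p = 0.00445). Rgmb, a BMP co-receptor gene, was 6.01, 5.83 and 5.63 against 4.78, 5.01 and 4.56 (difference 1.04 ± 0.14, adjusted p = 0.000283). Both genes were higher on every GFP-positive basal array than on every control basal array. GFP-negative mutant basal cells had 5.24, 5.32 and 5.34 for Rgmb, also above every control basal array. For Lrrc32 they had 3.39, 3.44 and 3.54. Itgav, the alpha V integrin gene whose product takes part in TGF-beta activation, rose by 0.72 ± 0.17 (adjusted p = 0.0218). Ltbp4 and Ltbp2, which encode latent TGF-beta binding protein family members of the matrix, fell by 1.09 (-1.09 ± 0.25, adjusted p = 0.0179) and 1.13 (-1.13 ± 0.29, adjusted p = 0.041). Of 11 intracellular SMAD regulators, Nedd4l alone was called (4.23% of all genes), higher by 1.35 ± 0.29 (adjusted p = 0.013). It encodes a ubiquitin ligase that acts on activated SMAD proteins, and its level was higher still in luminal cells, at 8.94 to 9.06 in controls. GFP-positive basal cells had Nedd4l at 7.42, 7.16 and 7.43, and GFP-negative mutant basal cells overlapped them at 6.12, 7.74 and 6.54. Of 6 other family ligand and receptor genes, 0 were called by limma in any of the 11 pairwise or interaction comparisons.

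Of 9 BMP target genes, Id2 rose (2.32% of all genes), Id3 and Id4 fell (1.91%) and 6 were not called in GFP-positive against control basal cells. The Id genes encode inhibitors of basic helix-loop-helix factors. Id3, whose promoter is shown above, measured 5.52, 5.68 and 4.51 in GFP-positive mutant basal cells, against 6.85, 6.96 and 6.83 in GFP-negative mutant basal cells and 6.79, 7.40 and 6.97 in control basal cells. It fell by 1.82 against control basal cells (-1.82 ± 0.33, 3.53-fold lower, adjusted p = 0.00462) and by 1.65 against GFP-negative cells (-1.65 ± 0.33, adjusted p = 0.0112), with no overlap in either. Id2 measured 9.0, 8.83 and 8.69 in GFP-positive mutant basal cells against 7.15, 7.09 and 7.18 in control basal cells and was higher by 1.70 ± 0.26 (adjusted p = 0.00088). Id4 differed by -0.73 ± 0.20 (adjusted p = 0.0463), and Id1 by -0.08 ± 0.39 (95% interval -0.89 to 0.74, adjusted p = 0.959). For Id4, GFP-positive basal cells had 5.52, 6.11 and 6.44. GFP-negative mutant basal cells overlapped them at 5.81, 5.48 and 6.09, with a lower mean (5.80 against 6.02). Of 10 measured TGF-beta target genes, 7 were not called (4.23% of all genes were called), Tgfbi rose (0.48 ± 0.12, adjusted p = 0.0382) and Fn1 (-0.57 ± 0.15, adjusted p = 0.0356) and Ltbp2 fell.

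In mutant Sca1-negative luminal cells, Id3 and Msx2 were the only genes called on these 6 lists, whose sizes are given above (background 1.90%). Both were lower. Id3 measured 5.71, 4.74 and 4.92 in mutant against 6.21, 6.25 and 7.30 in control Sca1-negative luminal cells (-1.46 ± 0.33, adjusted p = 0.0345). This call ended without control Sca1-negative luminal replicate 3 or mutant replicate 2 or 3 (-1.36 to -1.10, adjusted p 0.14 to 0.155). Msx2, a homeobox gene induced by BMP, measured 5.59, 5.04 and 4.91 in mutant against 6.65, 6.87 and 6.91 in control Sca1-negative luminal cells, clearly below them (-1.63 ± 0.23, adjusted p = 0.000928). In these cells 5 of 6 hormone-sensing genes (Esr1, Pgr, Foxa1, Prom1 and Tbx3) were also called lower, with a list mean of 4.72 to 5.0 in mutants against 6.39 to 6.74 in controls, and their part in the Msx2 and Id3 values was not tested. Sca1-positive luminal cells had Msx2 at 7.60 and 7.80 in mutants against 7.86, 7.51 and 8.03 in controls and Id3 at 7.39 and 7.94 against 6.95, 6.70 and 7.02, neither called. No gene of the lists was called in mutant Sca1-positive luminal (background 0.226%) or GFP-negative mutant basal cells (background 0.161%).

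**Figure D4:**
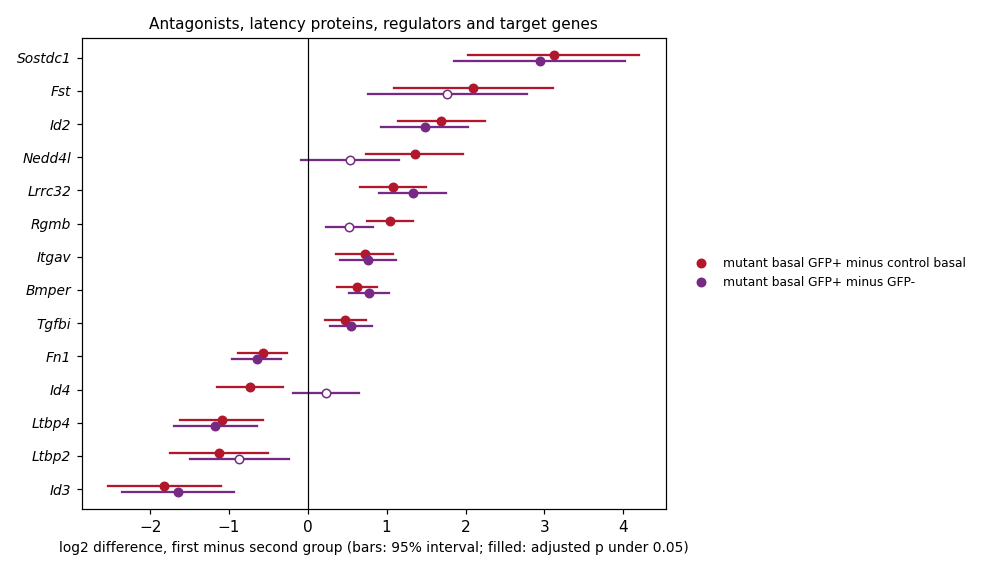
Log2 difference with 95% interval for the 14 genes of the 6 pathway lists that were called in GFP-positive mutant basal against control basal cells, shown against control basal and GFP-negative mutant basal cells; filled points passed an adjusted p of 0.05. Sostdc1 and Fst lie furthest to the right and Id3 furthest to the left, and the points of both comparisons lie on the same side of 0 except for Id4.

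Some of these calls in GFP-positive against control basal cells also ended without single arrays. This was so for Id4 without any of 16 of the 20 arrays (adjusted p 0.0536 to 0.181), Tgfbi without any of 12 (0.0502 to 0.149) and Ltbp2 without any of 11 (0.0502 to 0.158). Fn1 was not called without control basal replicate 1 or 2 or GFP-positive replicate 2 or 3 (adjusted p up to 0.142). Itgav was not called without control basal replicate 1 or 3 or GFP-positive replicate 1 (up to 0.0897), Ltbp4 without control basal replicate 2 or GFP-positive replicate 1 (up to 0.0793), and Nedd4l without control basal replicate 1 or 3 (up to 0.0569). Id3 against GFP-negative cells was not called without GFP-positive replicate 3 (-1.28, adjusted p = 0.0519).

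The list counts between lineages stand beside larger shares of all genes. The lists share genes, and a shared gene counts in each. Pmepa1, Skil and Tgif1 are both SMAD regulators and TGF-beta targets here. Ltbp2 is on the latency and TGF-beta target lists, and Bambi on the antagonist and BMP target lists. Against Sca1-negative luminal cells (4.67% of all genes higher, 5.22% lower), control basal cells were called higher in 5 of 17 antagonists (Bambi, Fst, Fstl1, Sostdc1 and Twsg1), higher in 3 and lower in 2 of 13 latency genes, higher in 2 and lower in 3 of 11 SMAD regulators, higher in 4 and lower in 1 of 10 TGF-beta targets, and higher in 2 and lower in 1 of 9 BMP targets. Against Sca1-positive luminal cells (5.94% of all genes higher, 6.32% lower) the counts were 6 higher of 17, 5 higher and 1 lower of 13, 3 higher and 3 lower of 11, 4 higher and 2 lower of 10, and 2 higher and 1 lower of 9. No antagonist was called lower in basal cells in either comparison. GFP-positive basal against mutant Sca1-negative luminal cells (4.43% of all genes higher, 5.16% lower) gave 6 higher of 17, 3 higher and 1 lower of 13, 0 higher and 3 lower of 11, 4 higher of 10, and 3 higher and 2 lower of 9. Between control Sca1-positive and Sca1-negative luminal cells, Thbs1 and Ccn2 were called lower and no other gene of the lists was called. GFP-positive against GFP-negative mutant basal cells gave 2 calls among the 45 family genes (background 3.25%), Acvr1 higher (2.05% of all genes) and Smad6 lower (1.20%), and on the lists 3 higher of 17, 2 higher and 1 lower of 13, 1 higher and 1 lower of 10, and 1 higher and 1 lower of 9.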

How the data were processed

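The authors deposited log2 probe set values for 20 arrays. That scale was inferred from the range, 1.98 to 13.07. Affy appears, per the submitters' processing notes, without a version or role. How values were normalized or filtered, and the build, is not given in the sources used here. Per the labels' protocols, each array used amplified cDNA from 2000 cells.

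Of 34760 probe sets, 21640 carried 1 gene symbol in the platform annotation, 1321 several and 11799 were not listed. A gene with several probe sets (954 genes) took the 1 with the highest mean over 20 arrays, which left 19937 genes. The deposited log2 values were fitted without renormalization in limma 3.58.1 (R 4.3.3) with 7 group means over 20 arrays, lmFit and eBayes at default settings, and Benjamini-Hochberg adjustment within each comparison. All groups share the estimated spread. It is the spread between 3 sorts of pooled mice, and arrays from the same pool are treated as independent. The script was tested on simulated data.

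The family rule and the pathway and marker lists were chosen with earlier results of these data known. Values on every array are given for genes called in a mutant comparison and the strongest lineage calls, and of each pathway list at most 6 called genes a comparison are named. Alternatives were a replicate block, array weights, quantile normalization, leaving out dim genes, an intensity trend, the mean over probe sets, only the compared arrays, and leaving out each array. Promoters are RefSeq's (GRCm38.p6). Precision is limited by how many arrays each group has.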

Additional observations from a re-analysis of the deposited data

Results flagged for a closer look

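For 6 pathway genes outside the family, the difference between GFP-positive mutant and control basal cells itself differed from that between mutant and control Sca1-negative luminal cells, by limma's interaction term with adjustment over all genes. The interaction was 2.83 for Fst (adjusted p = 0.0469), made of 2.10 in basal cells and -0.73 in luminal cells, and 0.81 for Bmper (adjusted p = 0.0231), made of 0.62 and -0.19. It was 1.78 for Id2 (adjusted p = 0.0196), with 1.70 in basal and -0.09 in luminal cells, and 0.82 for Tgfbi (adjusted p = 0.0235), with 0.48 and -0.34. It was 1.74 for Msx2 (adjusted p = 0.0104), with 0.11 in basal cells and -1.63 in luminal cells, and -2.30 for Ltbp2 (adjusted p = 0.00825), with -1.13 and 1.18. Only Ltbp2 and Msx2 kept the call in every alternative run. That of Fst ended without any of 16 of the 20 arrays (2.21 to 3.04), that of Tgfbi without any of 9 (0.71 to 0.83), that of Bmper without any of 5 (0.71 to 0.80, adjusted p up to 0.0672) and that of Id2 without mutant Sca1-negative luminal replicate 2 or 3 (1.73 to 1.76, adjusted p up to 0.0528). Levels of Bmper and Tgfbi were low, above the median gene on 5 and 2 of the 20 arrays. Msx2 was already low in control basal cells, at 4.21, 4.33 and 4.02 beside array medians of 3.86 to 3.87. This limits any fall that could be measured there. Control Sca1-negative luminal cells had 6.65, 6.87 and 6.91. No family gene had such an interaction.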

How the results depend on the processing

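Of 33 calls of family genes over the pairwise comparisons, 18 held under every alternative listed for the processing, 15 were lost under at least 1, and 0 reversed. Of 96 calls of pathway genes, 52 held, 44 were lost under at least 1, and 0 reversed. For GFP-positive mutant against control basal cells the 3 calls became 1 (Smad6) when only the compared arrays were fitted, with Acvr1 at adjusted p = 0.109 and Tgfbr1 at 0.233. Against GFP-negative cells the 2 calls became 1 with array weights, 1 with an intensity trend, 0 with only the compared arrays (Acvr1 adjusted p = 0.0946) and 1 without the 2 arrays of narrower spread, an alternative chosen after seeing the data. Array weights gave 1 call in mutant against control Sca1-negative luminal cells, where the report has 0. Between the control luminal subsets the single call became 2 with the replicate block, 2 with array weights, 0 with quantile normalization and 0 without the 2 arrays of narrower spread. Leaving out each array in turn gave 0 to 1 calls in mutant against control Sca1-negative and 0 to 1 in Sca1-positive luminal cells, 2 to 4 in GFP-positive against control basal cells, 0 to 0 in GFP-negative against control basal cells and 1 to 2 in GFP-positive against GFP-negative basal cells. It gave 6 to 8 and 8 to 13 in control basal against Sca1-negative and Sca1-positive luminal cells, 0 to 2 between these subsets, 5 to 7 in GFP-positive basal against mutant Sca1-negative luminal cells, 0 to 0 and 0 to 1 for the interactions, and 11 to 15 for the F test. Of 57 pairs of arrays with the same replicate number in different groups, 5 had residual correlations over 0.1 (median 0.02), and 15 of 20 arrays correlated best with their own number. The 114 pairs with different numbers reached at most 0.082 (median -0.01). The highest value, 0.222, was between the 2 arrays of narrower spread, both replicate 2. The labels do not say that a number marks a shared sort, so the replicate block was not the main design. Of the 45 family genes, 27 passed the filter on dim genes.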
